A study of Rattus norvegicus with 6 samples.

Results

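The miR-29 family of the rat was measured in tendon-derived stem cells kept with or without cyclic stretch. Members were taken by name: the array names that read rno-miR-29a, rno-miR-29b or rno-miR-29c, without the star (passenger) arms, gave 3 miRNAs of the 677 on the array. The cells (rTDSCs) came from the patellar tendons of male Sprague Dawley rats and were used at passage 3, after the first cells had been mixed. Cultures of both groups grew in plates coated with type I collagen. The 3 loading samples were stretched with 10% elongation at 0.5 Hz for 8 h per day over 7 days, and the 3 non-loading samples were kept static for the same time. Each sample was hybridised to 1 one-colour array, and the 6 arrays shared 1 slide. The labels do not say that the replicates came from separate cultures, so p-values measure only the spread between these samples, which may be technical.

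A miRNA pairs through its seed, the bases 2 to 8 from its 5′ end, with sites in messenger RNAs and lowers their translation and stability. The miR-29 family is best known as a brake on extracellular matrix: its targets include the mRNAs of type I and type III collagens, elastin and fibrillin, and transforming growth factor beta lowers its level in fibroblasts. Tendon is built mostly of type I collagen, so the comparison asks whether a week of stretch moved the level of these repressors in tendon cells.

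The mature sequences are shown because the members differ by so few bases; they are RefSeq's, on build GRCr8, and all 3 members matched. Capitals mark the seed.
miR-29a: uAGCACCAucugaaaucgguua
miR-29b: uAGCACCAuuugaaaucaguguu
miR-29c: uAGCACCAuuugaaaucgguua

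All 3 members carried the same seed, and no other of the 693 mature rat miRNAs in that table did. Counted from the 5′ end, miR-29a and miR-29c differed by a single substitution, C10U, and were identical at 21 of 22 positions. From miR-29a to miR-29b the substitutions were C10U, G18A, U21G and A22U, and miR-29b was 1 base longer. From miR-29c to miR-29b they were G18A, U21G and A22U. The 3′ end AGUGUU, known as a nuclear import signal of miR-29b, was found in miR-29b and not in the other members, and 2 of the 693 mature sequences ended with it. The array files used here hold no probe sequences, so how far a probe for one member binds another was not tested.

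The 3 mature miRNAs came from 4 hairpin genes in 2 clusters. Mature miR-29a lies at chr4:60617968-60617989 on the minus strand, in the gene Mir29a. The mature miR-29b of Mir29b1 lies at chr4:60618342-60618364 on the same strand, and the hairpins of these neighbours are 291 bases apart. The identical miR-29b of Mir29b2 lies at chr13:109098882-109098904 on the plus strand, and miR-29c of Mir29c at chr13:109099412-109099433, with 447 bases between their hairpins. The array therefore read the output of both miR-29b genes as 1 value.

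All 3 members were detected on all 6 arrays. Each had 2 probes of 10 spots per array, and 360 of the 360 spots were well above background, with 0 saturated. Within a probe and an array the spots had a median coefficient of variation (CV) of 6.95%, from 0.855% to 25.8%. Signals are given below as log2 of the background-subtracted intensity, summed over a miRNA's probes and set relative to the 75th percentile of the array's probes detected everywhere, so that 0 stands for that percentile. A probe's brightness also depends on its own binding, so the members' levels are not ranked against each other.

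miR-29a, the member of the chromosome 4 pair that has 1 gene, had scaled log2 signals of 3.52, 3.50 and 3.52 in non-loading replicates 1 to 3. In loading replicates 1 to 3 they were 3.52, 3.61 and 3.62. The groups did not overlap, but the lowest loading array (11.47 times the 75th percentile) and the highest non-loading array (11.44 times) nearly met. The means were 3.51 ± 0.01 (SD, n = 3) in non-loading and 3.58 ± 0.06 (SD, n = 3) in loading cells.

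miR-29b, the member with 2 genes, had scaled log2 signals of 2.12, 2.47 and 2.34 in non-loading replicates 1 to 3 and of 2.49, 2.42 and 2.42 in loading replicates 1 to 3. The groups overlapped, and non-loading replicate 1 was the lowest array. The means were 2.31 ± 0.18 (SD, n = 3) and 2.45 ± 0.04 (SD, n = 3). On the linear scale the arrays had a CV of 12.1% in the non-loading and 2.68% in the loading group.

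miR-29c, which differs from miR-29a by 1 base, had scaled log2 signals of −1.31, −1.21 and −1.22 in non-loading replicates 1 to 3. The loading values were −1.12, −1.22 and −1.08. Loading replicates 1 and 3 were above every non-loading array, while loading replicate 2 lay among the non-loading arrays. The means were −1.25 ± 0.05 (SD, n = 3) and −1.14 ± 0.07 (SD, n = 3).

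**Figure D1:**
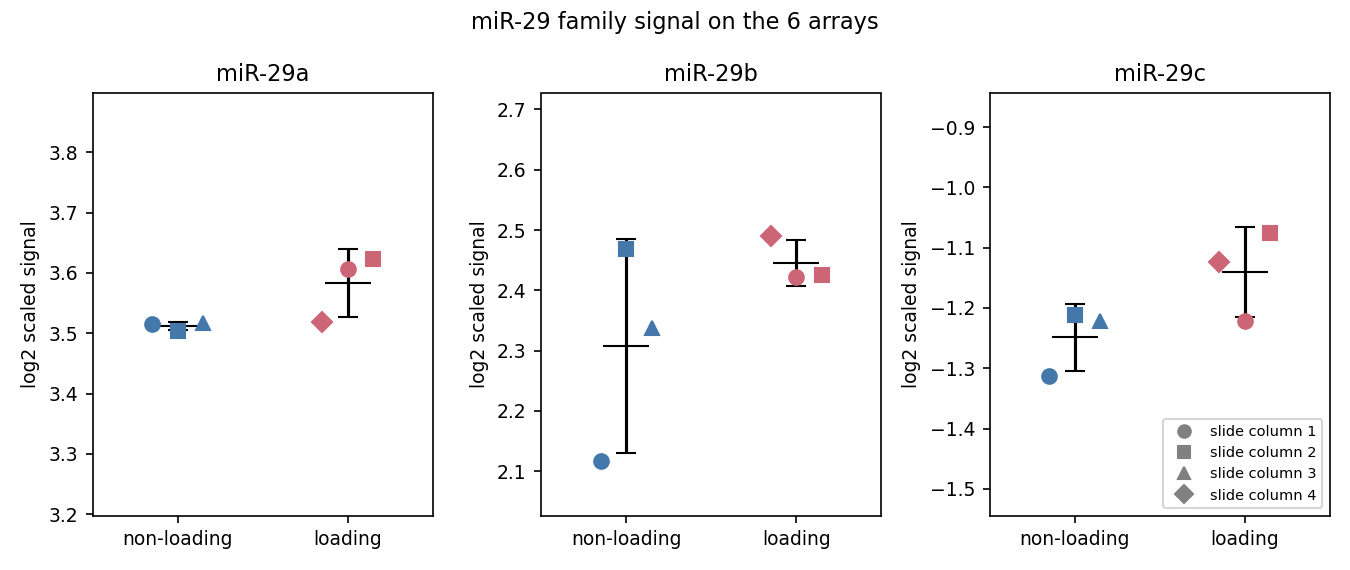
Scaled log2 signal of miR-29a, miR-29b and miR-29c on each of the 6 arrays, by group, with the group mean and its SD. The axes have the same height in log2 units but different positions; miR-29a runs from 3.50 to 3.62, and miR-29b has its lowest value, 2.12, on non-loading replicate 1.

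No member passed the test. The change under loading (log2, loading over non-loading) was 0.07 (SE 0.07) for miR-29a, 0.14 (SE 0.11) for miR-29b and 0.11 (SE 0.08) for miR-29c, with an adjusted p of 0.724 for each by limma with Benjamini-Hochberg adjustment over 148 miRNAs. As ratios these were 1.05, 1.10 and 1.08. The 95% intervals of the ratio ran from 0.931 to 1.19 for miR-29a, from 0.917 to 1.32 for miR-29b and from 0.943 to 1.23 for miR-29c. Exact two-sided permutation tests over the arrays gave p = 0.1, 0.3 and 0.2, and 0.1 is the smallest p that 3 arrays against 3 allow. In a bulk sample, a changed share of cells expressing a miRNA and a changed level per cell cannot be told apart.

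In the whole table, limma called 0 of the 148 tested miRNAs (0%) at an adjusted p under 0.05, and the smallest adjusted p was 0.0551. At an unadjusted p under 0.05 it called 14 (9.46%), none of them a member and 13 of them higher under loading (8.78%), and the test named in the study's methods, here the methods' test, called 15 and, after Benjamini-Hochberg adjustment, 2. The split by direction at this threshold depended on the processing and on a single array. It was 8 higher and 5 lower after quantile normalization and 0 higher and 1 lower with the 75th percentile over all probes. With the scanner software's total gene signal it was 3 higher and 5 lower, and without non-loading replicate 3, under the reported scaling, 5 higher and 5 lower. All loading arrays were above all non-loading arrays for 1 member of 3, against 19 of the 148 miRNAs (12.8%), and below them for 0 members, against 4 of the 148 (2.7%). The change was above 0 for all 3 members and for 99 of the 148 (66.9%), with a median over all miRNAs of 0.06. The sign of the members' changes turned with the processing. The change of miR-29a was −0.02 (SE 0.06) after quantile normalization and −0.03 (SE 0.11) with the scanner software's total gene signal. The 75th percentile over all probes made all 3 negative, with an SE of 0.34 each, against 0.07 to 0.11 as reported. That percentile was taken over 1644 probes, of which 194 were detected on every array of at least 1 group. With each array centred on its own median over the tested miRNAs, the changes were 0.08, 0.14 and 0.12, and the groups of miR-29a then overlapped.

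The summed signals of the members varied less within the groups than the median miRNA. Most tested miRNAs were dimmer than the members: the median log2 signal ran from −2.53 to −2.23 over the arrays. Spread was not compared at equal brightness, so a low spread is not shown to be particular to the family. The pooled within-group SD of the log2 signal was 0.04 for miR-29a, the 6th smallest of 148, 0.07 for miR-29c, the 17th smallest, and 0.13 for miR-29b, the 51st, against a median of 0.155 over all tested miRNAs. For miR-29a this holds for the sum of 2 probes that ran opposite ways over the arrays (r = −0.71). In non-loading replicates 1 to 3 the sum read 3.52, 3.50 and 3.52. There its brighter probe read 3.31, 3.27 and 3.23 and its dimmer probe 0.58, 0.75 and 1.05, so neither probe alone was as steady. For miR-29b the change depended most on single arrays: it was 0.04 without non-loading replicate 1 and 0.22 without non-loading replicate 2.

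The 2 probes of a member gave changes that differed by less than their standard errors. For miR-29a the brighter probe (A_26_P00001241, 84.7% of the member's signal) gave 0.07 (SE 0.08) and the dimmer (A_26_P00001240) 0.05 (SE 0.18). For miR-29b the values were 0.14 (SE 0.10) for the brighter (A_26_P00002574) and 0.13 (SE 0.13) for the dimmer (A_26_P00001237). For miR-29c they were 0.13 (SE 0.07) for the brighter (A_26_P00001245) and 0.08 (SE 0.10) for the dimmer (A_26_P00001244). None of the 6 probes passed at an adjusted p under 0.05 in the limma fit over 194 probes, where 3 probes did. All loading arrays were above all non-loading arrays for 1 of the 6, the brighter probe of miR-29c, whose adjusted p was 0.474, against 28 of the 194 probes (14.4%). Between the probes of a member the change differed by −0.02, −0.02 and −0.05 for miR-29a, miR-29b and miR-29c, with exact permutation p of 0.9, 0.8 and 0.7, each 0.9 after adjustment over the 3 pairs.

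**Figure D2:**
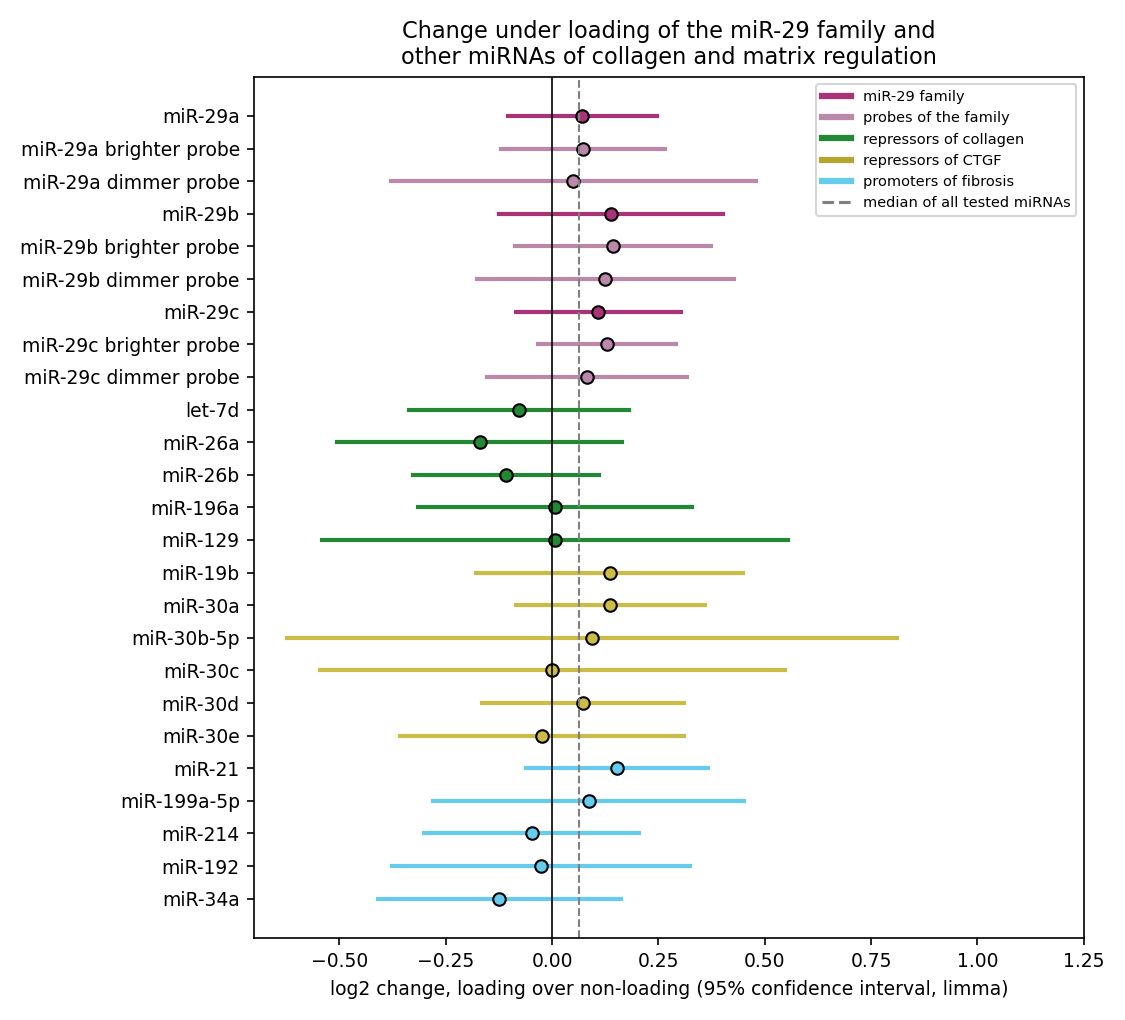
Log2 change under loading with its 95% confidence interval from limma, for the 3 members, their 6 probes and the tested miRNAs of 3 lists of collagen and matrix regulation; the dashed line is the median change of all tested miRNAs, 0.06. Every interval drawn includes 0, among them those of miR-29a (−0.10 to 0.25), miR-29b (−0.13 to 0.40) and miR-29c (−0.08 to 0.30).

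The probes of miR-29a did not follow each other across arrays. Over the 6 arrays their log2 signals had r = −0.71, against 0.92 for the pair of miR-29b and 0.47 for that of miR-29c. The dimmer miR-29a probe read 0.58, 0.75 and 1.05 in non-loading replicates 1 to 3 and 1.12, 0.58 and 0.84 in loading replicates 1 to 3. Ordered by the column of the array on the slide, from column 1 to 4, its means were 0.58, 0.80, 1.05 and 1.12. Non-loading replicate 1 and loading replicate 2, both in column 1, differed by 0.0037 in this probe, and non-loading replicate 2 and loading replicate 3, both in column 2, by 0.085, while the whole range was 0.55. Column means that rose at each step from column 1 to 4 were seen for 8 of the 194 probes, among them the dimmer probes of miR-29a and miR-29c. For the miR-29c probe the step from column 2 to 3 was only from −2.352 to −2.347, while its arrays in column 2 differed by 0.13. Means that fell at each step were seen for 22, among them the brighter miR-29a probe. Every array lay above every array of the column before for 3 of the 194, the dimmer miR-29a probe among them, and below for 10. The spots of this probe were most uneven in column 1, with a CV of 17.3% and 25.8% there and of 3.65% to 10.2% on the other arrays. The 25.8% was on loading replicate 2. On that array the brighter miR-29a probe had 15.1%, the miR-29c probes 21.8% and 15.6%, and the miR-29b probes 9.59% and 7.60%.

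The brighter miR-29a probe ran the other way, with column means of 3.37, 3.33, 3.23 and 3.22. The dimmer miR-29c probe had column means of −2.53, −2.35, −2.35 and −2.27, and over the 6 arrays its r with the dimmer miR-29a probe was 0.88. With 6 points that share the arrays and their scale factors, these correlations are descriptions only. Columns 3 and 4 hold 1 array each, of opposite groups, so column and group cannot be told apart there.

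Position on the slide was compared with the change itself. Within column 1 the loading array minus the non-loading array was 0.09 for miR-29a, 0.31 for miR-29b and 0.09 for miR-29c. Within column 2 it was 0.12, −0.04 and 0.14. Row 1 held all non-loading arrays and loading replicate 1, and that array minus the mean of the non-loading arrays was 0.01, 0.18 and 0.13. For miR-29a the loading arrays of row 2 read 3.61 and 3.62 and the loading array of row 1 read 3.52, against at most 3.52 in the non-loading group, and no non-loading array lay in row 2. With the row as a term in the fit, the change of miR-29a was that same row 1 contrast, 0.01, since row 2 held only loading arrays. It therefore rests on loading replicate 1 alone. With the column as a random block the change of miR-29a was 0.09.

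Ratios within an array do not depend on its scale factor. The log2 ratio of miR-29b to miR-29a was −1.20 ± 0.18 (SD, n = 3) in non-loading and −1.14 ± 0.09 (SD, n = 3) in loading cells, a difference of 0.07 (SE 0.12). For miR-29c to miR-29a it was −4.76 ± 0.06 and −4.72 ± 0.10 (SD, n = 3 each), a difference of 0.04 (SE 0.06). The pair of the chromosome 13 cluster, miR-29c to miR-29b, had −3.56 ± 0.13 and −3.59 ± 0.08 (SD, n = 3 each), a difference of −0.03 (SE 0.08). Exact permutation p were 0.8, 0.6 and 0.7, each 0.8 after adjustment over the 3 pairs. These ratios serve to compare the groups and are not ratios of molecules, since each member has its own probes.

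The passenger arms of the same hairpins were mostly below detection. Their sequences, from the same table, are shown because their seeds, in capitals, differ from the family seed and from each other.
miR-29a*: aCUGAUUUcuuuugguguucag
miR-29b-1*: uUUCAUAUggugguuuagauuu
miR-29b-2*: cUGGUUUCacaugguggcuuag
miR-29c*: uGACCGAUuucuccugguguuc

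miR-29a* was detected on 1 of the 6 arrays, and miR-29b-1*, miR-29b-2* and miR-29c* on 0. Of 120 spots each, 2, 1, 0 and 2 were well above background. miR-29b-1* and miR-29b-2* come from the different miR-29b genes and could have told them apart, but neither had a level to compare, and none of these arms was tested.

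Other miRNAs known to repress collagen mRNAs gave no call either. Of the 8 names on that list 5 were tested, and none had an unadjusted p under 0.05. Their median change was −0.08, beside 0.06 over all miRNAs, and 2 of the 5 were above 0. The change was −0.17 (SE 0.14) for miR-26a and −0.11 (SE 0.09) for miR-26b, which share a seed, and −0.08 (SE 0.11) for let-7d. It was 0.01 for miR-196a and 0.01 for miR-129. miR-133a and miR-133b, known from muscle, were detected on 0 arrays, and the name let-7g was not among those on the array.

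Of 8 repressors of connective tissue growth factor, a secreted inducer of matrix synthesis, 6 were tested and none had an unadjusted p under 0.05. Their median change was 0.08. It was 0.14 (SE 0.13) for miR-19b, a member of the miR-17-92 cluster, and for the miR-30 family ran from −0.02 for miR-30e to 0.14 (SE 0.09) for miR-30a. miR-18a was detected on 4 arrays and miR-19a on 1, and neither was tested.

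Of 7 miRNAs known as promoters of fibrosis, 5 were tested, again with no unadjusted p under 0.05 and a median change of −0.03. miR-21, which is raised in many fibrotic tissues, had 0.15 (SE 0.09) and an adjusted p of 0.709. The change was 0.09 for miR-199a-5p and −0.05 for miR-214, which come from one transcript, −0.03 for miR-192 and −0.12 for miR-34a, a target of p53. miR-145 was detected on 3 arrays and not tested, and the name miR-155 was not among those on the array.

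The miRNAs whose signals followed the members most closely are given as a description over 6 arrays, which share scale factors and slide positions. For miR-29a, Pearson's r was highest with miR-23b (0.896), miR-34c (0.844) and miR-10b (0.817). For miR-29b it was highest with miR-193 (0.934), miR-101a (0.894) and miR-19b (0.856), the last of them on the list of growth factor repressors. For miR-29c it was highest with miR-99b (0.954), miR-455 (0.917) and miR-27b (0.916). The median r over the 145 other tested miRNAs was 0.219 for miR-29a, 0.0907 for miR-29b and 0.153 for miR-29c.

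The r of the members with each other lay below these highest values, which were picked out of 145 miRNAs for each member. It lay above each member's median r, for miR-29a and miR-29b only slightly on the side of miR-29a (0.219). The members' r was 0.24 between miR-29a and miR-29b, which share the chromosome 4 cluster, 0.49 between miR-29a and miR-29c, and 0.74 between miR-29b and miR-29c, which share the chromosome 13 cluster. The miR-29a probes differed in their r with the dimmer and the brighter miR-29b probe. It was −0.30 and 0.08 for the brighter miR-29a probe, and 0.60 and 0.37 for the dimmer. Among the 147 miRNAs ordered by likeness to miR-29b, miR-29c stood at place 13 and miR-29a at place 57. In the order for miR-29a, miR-29c stood at place 32 and miR-29b at place 71.

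**Figure D3:**
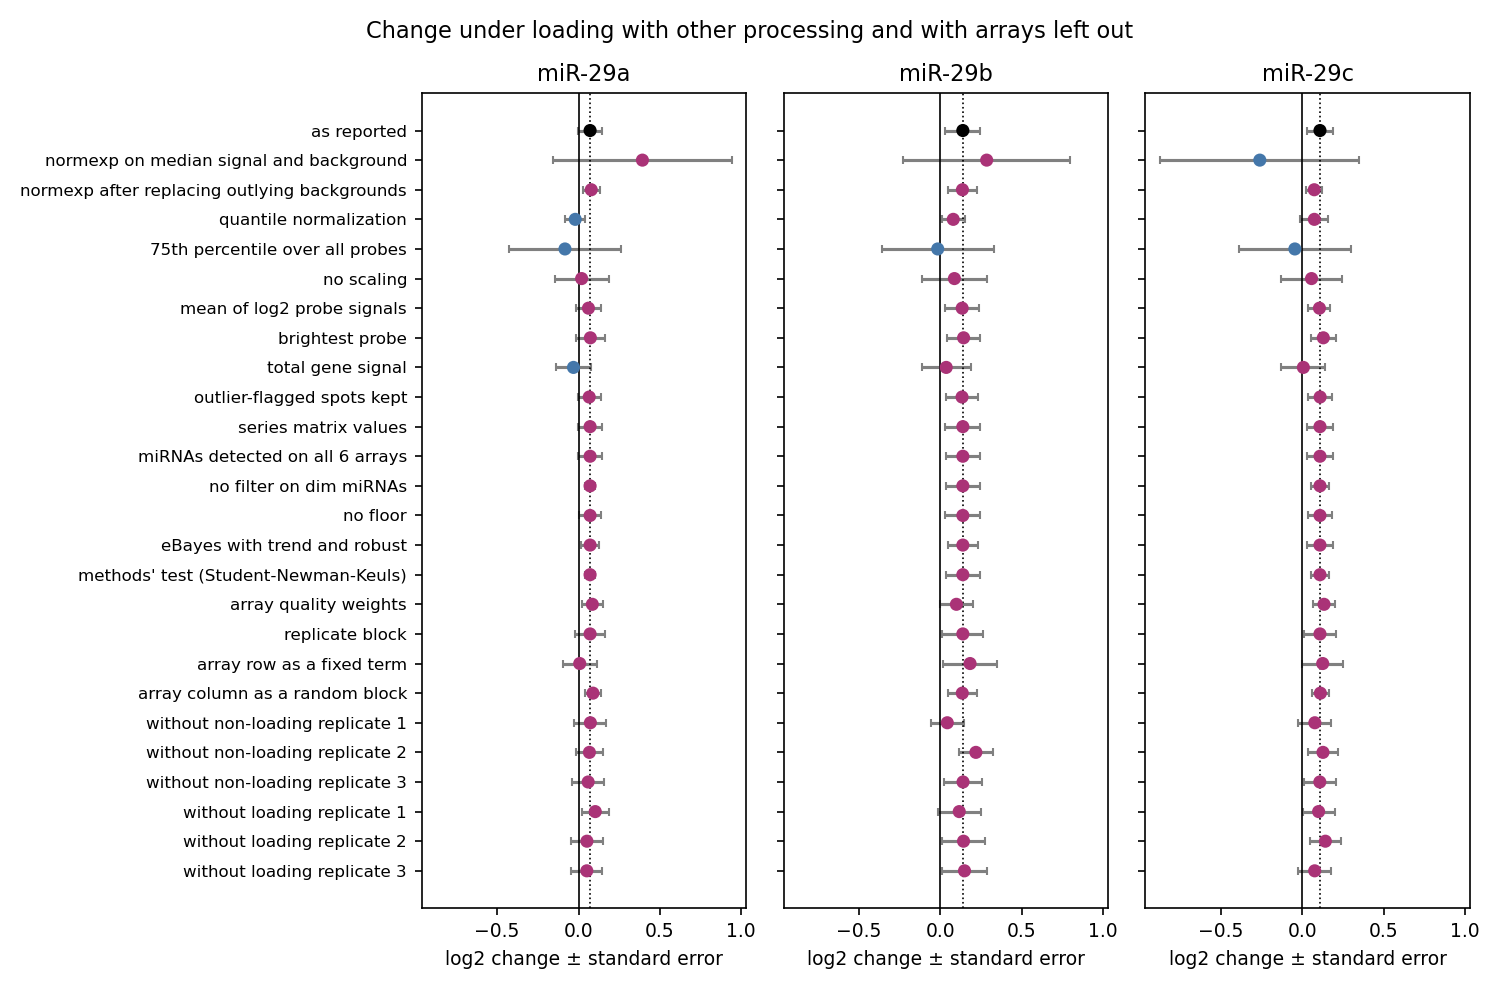
Log2 change under loading of miR-29a, miR-29b and miR-29c, with its standard error, as reported and under each other way of processing or testing, arrays left out included; black points are the values as reported, dotted lines repeat them, and blue points are changes below 0. As reported the values are 0.07, 0.14 and 0.11. Those of miR-29a run from −0.08 to 0.39 and those of miR-29b from −0.016 to 0.28. miR-29c reaches −0.26 (SE 0.61) with normexp on median signal and background, and has 0.07 after outlying backgrounds were replaced.

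The 75th percentile of intensity ran from 262.6 to 362.2, the SD of negative control spots from 1.80 to 2.28, and the number of detected miRNAs from 140 to 186. Of 7 mesenchymal miRNAs, 6 were detected on all arrays, while 5 epithelial, 4 muscle, 2 neural and 1 liver miRNAs were detected on none. Of 5 blood miRNAs only miR-223 was detected, on 5 arrays, with a change of 0.40 (SE 0.22) and an adjusted p of 0.709, and miR-142-3p and miR-451 were detected on none. The summed blood signal was −4.20% to 5.88% of the 75th percentile in non-loading and 2.94% to 7.13% in loading arrays. This sum includes values below 0 from undetected miRNAs, and miR-223 alone was at 4.48% to 8.75% over all arrays. The endothelial miR-126 was detected on all arrays, at 2.77% to 4.91% and 3.91% to 5.36%. The part of such cells in the members' values was not tested.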

How the data were processed

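The 6 one-colour Agilent rat miRNA arrays were read with R 4.3.3 and limma 3.58.1. The deposited scanner files hold, per spot, the background-subtracted processed intensity of Agilent Feature Extraction 10.7; the authors' value table held the same values (largest difference 0). Each probe's value was the mean of its spots, without control and outlier spots. It was scaled to the 75th percentile of its array, taken over 173 probes with signal on every array, then added up per miRNA, floored at 1.87% of that percentile and log2-transformed. A miRNA entered the test if every array of either group detected it, which left 148 for limma (lmFit, eBayes) and Benjamini-Hochberg adjustment, after the script was tested on simulated data. Single values were also tested by exact permutation over arrays. Named miRNAs are the members, their star arms, the tested members of 3 lists, and the 3 miRNAs with the highest r with each member. Members and lists were chosen with earlier results of these data known. Alternatives covered background, scaling, probe summary, filters, tests, blocks and leaving out each array. The number of arrays limits the precision. Coordinates and sequences are from RefSeq on GRCr8, not the array's own build.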

Additional observations from a re-analysis of the deposited data

How the results depend on the processing

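No member passed an adjusted p of 0.05 by limma, or by the methods' test, under any of the 19 alternatives or with any array left out. Among the 19, the authors' value table held the same values and could only repeat the reported result. The lowest and highest adjusted p over the alternatives, both by limma, were 0.438 and 0.997 for miR-29a and miR-29b. For miR-29c they were 0.387 and 0.997. The change of miR-29a was −0.020 (SE 0.06) after quantile normalization, −0.083 (SE 0.34) with the 75th percentile over all probes and −0.031 (SE 0.11) with total gene signal. With the percentile over all probes miR-29b had −0.016 and miR-29c −0.046 (SE 0.34 each). With normexp on median signal and background miR-29c had −0.26 (SE 0.61), miR-29a 0.39 (SE 0.55) and miR-29b 0.28 (SE 0.51). After outlying backgrounds were replaced, a second normexp gave miR-29a 0.08 (SE 0.05), miR-29b 0.14 (SE 0.09) and miR-29c 0.07 (SE 0.05). The median change of all tested miRNAs was −0.09 with all probes, −0.45 with the first normexp and 0.04 with the second, against 0.06 as reported. With the first normexp the ratio differences were −0.11 (SE 0.16) for miR-29b to miR-29a and −0.65 (SE 1.04) for miR-29c to miR-29a. For miR-29c to miR-29b the difference was −0.55 (SE 0.98), as reported −0.03. With the second normexp they were, in the same order, 0.06 (SE 0.11), −0.0046 (SE 0.036) and −0.06 (SE 0.12). The cause was not tested.

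Leaving out each array gave changes of 0.05 to 0.10 for miR-29a, 0.04 to 0.22 for miR-29b and 0.08 to 0.14 for miR-29c. The ratio differences ran from −0.03 to 0.15 (miR-29b to miR-29a, negative without non-loading replicate 1), from −0.0025 to 0.090 (miR-29c to miR-29a, negative without loading replicate 1) and from −0.091 to 0.035 (miR-29c to miR-29b, positive without non-loading replicate 1). The number of miRNAs past the threshold was 0 with each array left out. It was 2 after quantile normalization, with array quality weights, the methods' test, a trended robust eBayes, no floor, outlier spots kept, the brightest probe alone, log2 probe signals averaged, only miRNAs detected on all 6 arrays, and the column as a random block, and 0 under the others.

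Deviations from the group mean of same-numbered arrays had r = −0.69, −0.47 and 0.11 over the 148 miRNAs. The highest r, 0.74, was between non-loading replicate 1 and loading replicate 2, both in slide column 1. Such r also carry effects of whole arrays, so they cannot decide whether the replicate numbers pair the samples. With a replicate block the changes stayed 0.07, 0.14 and 0.11, each with an adjusted p of 0.850 by limma, the ratio differences have no such fit, and 0 miRNAs passed, with 6 at an unadjusted p under 0.05.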
